A study of Mus musculus with 8 samples.

Results

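A set of 7 potassium channel subunit genes was followed in nuclei of cortical GABAergic neurons: the Kv3 pore genes Kcnc1, Kcnc2 and Kcnc4, the silent pore subunit gene Kcns3, and the Kv beta genes Kcnab1, Kcnab2 and Kcnab3. They were chosen by name, as 7 of the 55450 gene identifiers in each count table, and all 7 were found once. The series compares nuclear RNA of control mice, Thra+/+, with that of mutant mice, Thra+/AMI, which carry 1 mutated copy of the thyroid hormone receptor gene Thra. The mutated copy makes a dominant-negative receptor, and a Cre driver that is active in GABAergic neurons switches it on. All mice were juvenile, with no age in days in the labels, and each also carried a nuclear fluorescent reporter by which nuclei of 1 cortex per library were sorted. The driver is not named in the labels, so the GABAergic classes it reaches are not given. Of the 4 mutants, numbers 6, 7, 8 and 10, the table of number 10 repeated that of number 7, and 0 of 21975 gene symbols with a count differed between them. The difference was less than sampling noise, and the pair was taken as 1 sample, so 4 controls were compared with 3 mutants.

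Kv3 channels open only at strongly depolarised potentials and close quickly, which repolarises the membrane fast after each spike. They are best known in cortex from fast-spiking parvalbumin neurons, which need them to fire at high rates. Kv beta subunits are cytoplasmic proteins, related to aldo-keto reductases, that bind mainly Kv1 channels, change their inactivation and help them reach the surface. Kcns3 encodes Kv9.3, which forms no channel alone and joins Kv2 subunits.

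Total counts were 11797788 to 13804734 reads in controls and 10747169 to 12941251 in mutants. Levels are given as CPM, counts scaled to the library total, adjusted between libraries by the TMM method. Parvalbumin itself, Pvalb, had a mean of 40.9 ± 5.90 CPM over the 4 controls and 1.81 ± 0.681 CPM over the 3 mutants (SD). Thra was at 114.3 ± 9.34 and 87.4 ± 9.38 CPM and did not pass the test (edgeR, adjusted p = 0.0543). That call depended on libraries and processing: among other settings, the adjusted p was 0.0275 without control 1, 0.0149 without control 4 and 0.0312 in DESeq2. These counts add both copies of Thra. Marker genes were read in the sorted nuclei, but without an unsorted sample the enrichment by the sort could not be measured. Gad1 had a mean of 568.2 ± 63.1 CPM over controls and 635.9 ± 43.8 CPM over mutants (SD, n = 4 and 3). The glutamatergic marker Slc17a7 was at 72.1 ± 21.3 and 67.1 ± 18.3 CPM. Levels varied within each list: the GABAergic marker Slc32a1 was at 24.7 ± 2.60 and 24.3 ± 6.89 CPM. The glutamatergic marker Camk2a was at 268.8 ± 42.8 and 216.4 ± 21.3 CPM. Of 8 glutamatergic markers 0 passed edgeR's test and 1 had an unadjusted p under 0.05. Controls 1 and 4 lay apart along gene length. The log2 ratio of control 1 to control 4 had a median of 0.47 over tested genes shorter than 10 kb and −0.73 over those longer than 100 kb. In bulk nuclei, fewer cells of a type and less RNA per cell cannot be told apart.

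Of the 7 genes 3 fell in mutants: the pore gene Kcnc1, by 62.2%, and the Kv beta genes Kcnab3, by 52.6%, and Kcnab2, by 36.8%. No gene of the 7 rose. The other 4, Kcnc2, Kcnc4, Kcns3 and Kcnab1, did not pass the test, and their groups overlapped. All 7 were among the 16448 genes tested, of which 9.42% were called at an adjusted p under 0.05 (edgeR's quasi-likelihood test, two-sided, Benjamini-Hochberg adjustment over all tested genes). Of all tested genes 4.78% were called lower and 4.63% higher. Groups that did not overlap in CPM were found for 3 of the 7 genes and for 22% of tested genes. The median log2 fold change of the 7 was −0.16, beside −0.01 over all tested genes. Calls over all genes rested in part on single libraries: 1549 genes were called with all libraries, 734 to 816 without 1 of the 3 mutants, 1016 without control 3 and 2347 without control 4.

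**Figure D1:**
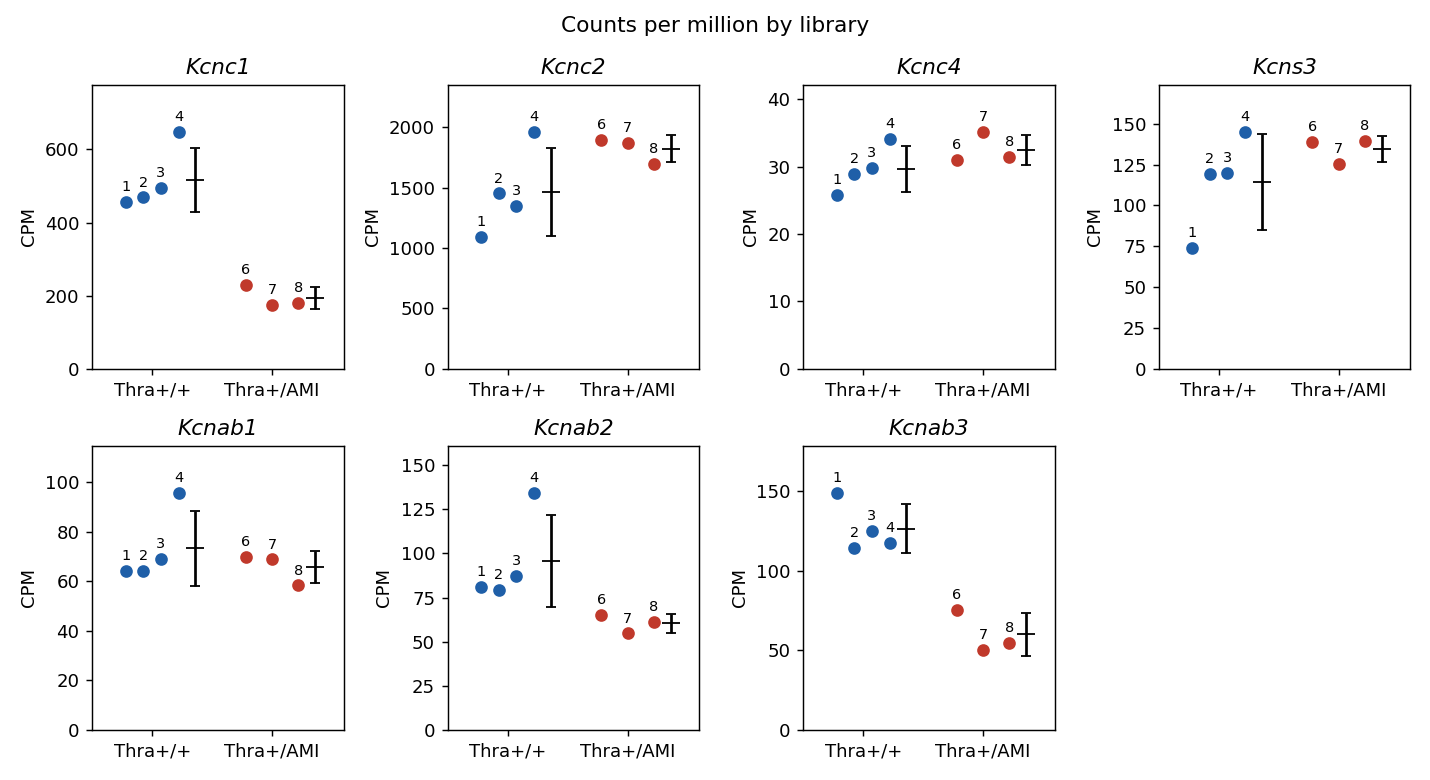
CPM (counts scaled to the library total, linear axis from 0) of the 7 genes, one point per library with its animal number, for Thra+/+ controls and Thra+/AMI mutants. Bars give the mean ± SD. Mutant points lie below every control point for Kcnc1, Kcnab2 and Kcnab3, and the groups overlap in the other 4 panels.

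Kcnc1 encodes Kv3.1 and showed the largest change of the 7 genes. It was at 456.5, 468.6, 494.8 and 646.8 CPM in controls 1 to 4 and at 229.8, 175.4 and 180.2 CPM in mutants 6, 7 and 8. The highest mutant thus had less than the lowest control, and these values rest on 5765 to 8033 reads in controls and 1914 to 2942 in mutants. The means were 516.7 ± 88.2 CPM (SD, n = 4) and 195.1 ± 30.1 CPM (SD, n = 3), and the log2 fold change was −1.40 (SE 0.17, 95% interval −1.77 to −1.04, edgeR adjusted p = 0.000296). It was called in all 15 alternative fits, with log2 fold changes from −1.54 to −1.28. The gene (ENSMUSG00000058975.7) lies on GRCm38 chromosome 7, 46396497 to 46438704, plus strand, and no other annotated gene overlaps it.

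Kcnc2 encodes Kv3.2, the other Kv3 subunit of fast-spiking cells, and had the most reads of the 7 genes in every library. Controls 1 to 4 had 1091.3, 1452, 1349.9 and 1957.9 CPM and mutants 6, 7 and 8 had 1898, 1872 and 1694 CPM. The mutants fell inside the control range, whose ends were control 1 and control 4. The log2 fold change was 0.32 (SE 0.21, 95% interval −0.14 to 0.77, edgeR adjusted p = 0.43). It passed the test without controls 1 and 4, at 0.38 (adjusted p = 0.0230), with an offset for genomic length, at 0.32 (adjusted p = 0.0111), and in limma-voom with quality weights, at 0.37 (adjusted p = 0.0471). The gene (ENSMUSG00000035681.7) lies on GRCm38 chromosome 10, 112271121 to 112467024, plus strand, a span of 195.9 kb with no overlapping gene.

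The sequences upstream of these 2 pore genes are shown because the first fell and the second did not. Each run holds the 250 bases before a RefSeq start site (build GRCm38.p6), 5′ to 3′ on the strand of the gene, with CpG dinucleotides in capitals. The Kcnc1 window is chr7:46396218-46396467 and the Kcnc2 window is chr10:112270871-112271120, both on the plus strand.
Kcnc1: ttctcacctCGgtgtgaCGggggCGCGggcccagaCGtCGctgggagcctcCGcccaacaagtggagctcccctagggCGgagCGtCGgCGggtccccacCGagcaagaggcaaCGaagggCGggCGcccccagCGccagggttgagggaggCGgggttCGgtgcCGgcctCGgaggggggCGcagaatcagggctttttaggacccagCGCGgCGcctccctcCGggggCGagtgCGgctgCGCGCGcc
Kcnc2: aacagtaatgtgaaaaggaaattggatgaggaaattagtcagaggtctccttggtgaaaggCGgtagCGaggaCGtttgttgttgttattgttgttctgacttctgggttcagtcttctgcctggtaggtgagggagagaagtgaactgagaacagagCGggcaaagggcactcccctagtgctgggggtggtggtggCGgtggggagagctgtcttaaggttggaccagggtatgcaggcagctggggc
The Kcnc1 window holds 30 CpG and 74.4% G and C, and 94.1% of 32851 RefSeq promoter windows have fewer CpG. The Kcnc2 window holds 5 CpG and 52.8% G and C, and 44.4% of windows have fewer. GGGCGG, searched on both strands, occurs 3 times in the Kcnc1 window, not in this Kcnc2 window, and in 32.7% of all windows. Kcnc2 has 4 RefSeq start sites, and 1 of its other windows holds 1 GGGCGG. Windows of Kcns3, Kcnc4, Kcnab1 and Kcnab2 also include some with GGGCGG. Of the genes not called, the windows of Kcns3 hold 8 and 23 CpG, that of Kcnc4 12, and those of Kcnab1 6, 2 and 1. Those of Kcnab2, which fell, hold 3, 5 and 20 CpG. A relation of CpG number or GGGCGG to the calls was not tested. The hexamer AGGTCA, a half-site that nuclear receptors bind, occurs in 14.0% of all windows on either strand. It was found in 0 of the 14 windows of the 6 genes with an entry, as was its direct repeat with 4 bases between the copies (DR4), which contains the hexamer and occurs in 0.0152% of all windows. TATAAA, found in 12.4% of windows, also has 0 matches in the 14. These are matches of letters in short windows and carry no measurement of binding.

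Kcnc4 encodes Kv3.4, a fast-inactivating member of the family. It was at 25.8, 28.9, 29.8 and 34.1 CPM in controls and at 31.0, 35.1 and 31.4 CPM in mutants, and the groups overlapped. The log2 fold change was 0.13 (SE 0.13, 95% interval −0.15 to 0.41, edgeR adjusted p = 0.63). Kcnc4 (ENSMUSG00000027895.9, GRCm38 chromosome 3, 107438303 to 107459552, minus strand) overlaps no other gene.

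A ratio of 2 genes within a library does not depend on how libraries are scaled. The log2 ratio of Kcnc1 to Kcnc2 counts was −1.26, −1.63, −1.45 and −1.60 in controls and −3.05, −3.42 and −3.23 in mutants. All mutants lay below all controls, by 1.75 on the log2 scale between means. The ratio of Kcnc1 to Kcnc4 was lower by 1.54 on the log2 scale, at 4.11 ± 0.10 in controls (SD, n = 4) and 2.58 ± 0.29 in mutants (SD, n = 3), again without overlap. Kcnc2 to Kcnc4 was at 5.60 ± 0.19 in controls (SD, n = 4) and 5.81 ± 0.11 in mutants (SD, n = 3), and overlapped. Exact permutation tests over libraries, two-sided, with 35 arrangements, gave p = 0.0286 for both ratios of Kcnc1 and p = 0.20 for Kcnc2 to Kcnc4. The first value is the smallest this design can give. After adjustment over the 6 pairs that were compared, both ratios of Kcnc1 had p = 0.0571 (exact permutation, Benjamini-Hochberg) and missed 0.05. With so few libraries, a pair could pass after adjustment only if enough other pairs reached the smallest value too.

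**Figure D2:**
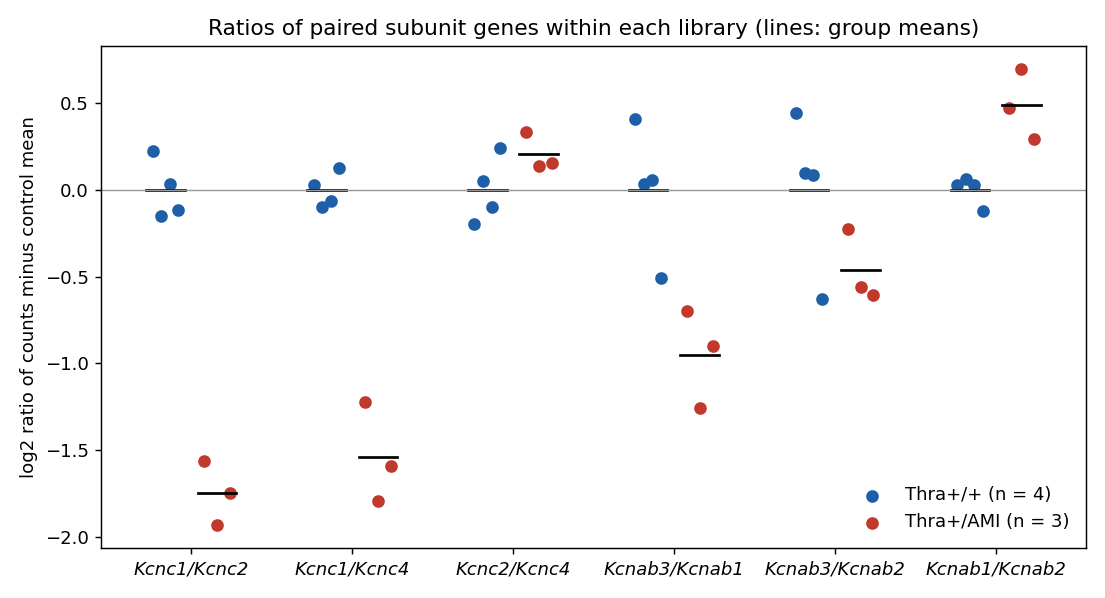
Log2 ratio of the counts of 2 subunit genes within each library, minus the mean of the controls, for 6 pairs, with 1 point per library and lines at group means. Mutants (n = 3) lie below all controls (n = 4) for Kcnc1/Kcnc2, Kcnc1/Kcnc4 and Kcnab3/Kcnab1 and above all controls for Kcnab1/Kcnab2.

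The counts behave as reads over whole gene spans, introns included, that leave out stretches shared with another gene on either strand: 1351 of 1351 protein-coding genes whose span others cover had no read. A level per length was therefore taken per kb of unshared span, and per kb of merged exon for comparison. Of the summed level of Kcnc1, Kcnc2 and Kcnc4 per kb of unshared span, Kcnc1 made up 58.2 ± 2.44% in controls (SD, n = 4) and 29.8 ± 2.89% in mutants (SD, n = 3). Kcnc2 made up 35.1 ± 2.66% and 60.2 ± 1.91% on that scale, so that these 2 genes changed places in order. Per kb of merged exon Kcnc1 was at 20.6 ± 1.89% of the sum in controls (SD, n = 4) and 7.24 ± 0.875% in mutants (SD, n = 3), and Kcnc2 came first in both groups. The Kcnc1 share did not overlap between groups on either scale.

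Kcns3 encodes Kv9.3, a modulator of Kv2 channels that is also a known marker of parvalbumin neurons in cortex. It was at 74.0, 119.3, 119.7 and 144.8 CPM in controls and 138.9, 125.2 and 139.4 CPM in mutants. Control 1 was low, and the mutants lay within the control range. The log2 fold change was 0.23 (SE 0.18, 95% interval −0.16 to 0.62, edgeR adjusted p = 0.51). Without control 1 the log2 fold change was 0.08. Kcns3 (ENSMUSG00000043673.11) lies on GRCm38 chromosome 12, 11090202 to 11151056, minus strand, and 0.792% of its span is shared with the pseudogene Gm48088. Kcnb2, a Kv2 pore gene, was not called either and differed by 0.55 on the log2 scale (SE 0.26, edgeR adjusted p = 0.25).

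Among the Kv beta genes, Kcnab3 had the largest fall. Kcnab3 encodes Kv beta 3 and was at 148.8, 114.4, 125.2 and 117.2 CPM in controls and 75.1, 50.04 and 54.3 CPM in mutants. Every mutant was below every control. The means were 126.4 ± 15.6 CPM (SD, n = 4) and 59.8 ± 13.4 CPM (SD, n = 3), and the log2 fold change was −1.08 (SE 0.15, 95% interval −1.41 to −0.74, edgeR adjusted p = 0.000976). All 15 alternative fits called it, at log2 fold changes from −1.28 to −0.96. Kcnab3 (ENSMUSG00000018470.8) spans 6.79 kb of GRCm38 chromosome 11, 69326258 to 69333042, plus strand. The antisense gene Kcnab3os lies wholly within that span, shares 33.9% of it and 5.13% of its exon bases, and is listed at 0 in every library. Counts that leave out shared stretches give 0 there whether or not Kcnab3os is transcribed. The counts of Kcnab3 then come from the other 4.49 kb of its span. Whether antisense reads occur in that part was not tested.

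Kcnab2 encodes Kv beta 2, the most common Kv beta protein of brain. Controls had 81.2, 79.1, 87.4 and 134.3 CPM and mutants had 65.0, 54.6 and 61.4 CPM. Control 4 was far above the other controls, but all controls were above all mutants. The log2 fold change was −0.66 (SE 0.18, 95% interval −1.04 to −0.28, edgeR adjusted p = 0.0336). Without control 4 it was −0.45 (adjusted p = 0.00889). The call was lost without control 3 (adjusted p = 0.0589), mutant 6 (0.0933), mutant 7 (0.172) or mutant 8 (0.123). The change on the log2 scale was then −0.72 to −0.59. Kcnab2 (ENSMUSG00000028931.11) lies on GRCm38 chromosome 4, 152390742 to 152477871, minus strand, with 5.95% of its span shared with Nphp4, Gm16333 and Gm16334. On the log2 scale Nphp4 differed by −0.04 (SE 0.13, edgeR adjusted p = 0.91).

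Kcnab1 encodes Kv beta 1, which can give Kv1 channels fast inactivation. It was at 64.2, 64.0, 68.9 and 95.6 CPM in controls and 69.9, 68.7 and 58.2 CPM in mutants, with overlap between the groups. The log2 fold change was −0.16 (SE 0.15, 95% interval −0.48 to 0.17, edgeR adjusted p = 0.61), and without control 4 it was −0.0033 (adjusted p = 0.99). Other genes share 81.1% of the span of Kcnab1 (ENSMUSG00000027827.16, GRCm38 chromosome 3, 65109384 to 65378223, plus strand), which leaves 50.9 kb counted. The antisense genes A330015K06Rik and A730090N16Rik lie within that span and are listed at 0. AC113458.1, on the same strand from 64949223 to 65223701, had 1014 reads and a log2 fold change of 0.16 (edgeR adjusted p = 0.70). A RefSeq start site of Kcnab1 lies at 64949212, and whether reads of AC113458.1 come from Kcnab1 transcripts was not tested.

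In control 4 the 8 glutamatergic markers summed to 470.6 CPM, against 333.4 to 372.5 in the other controls and 275.8 to 353.3 in mutants, and the 8 astrocyte markers to 509.6 CPM, against 353.4 to 407.3 and 303.7 to 346.5. Without Camk2a, the most abundant glutamatergic marker, the other 7 summed to 141.1 CPM in control 4. Their sum was 76.7 to 143.2 CPM in the other controls, so that control 4 was no longer highest. Without Slc4a4, the most abundant astrocyte marker, the other 7 summed to 261.9 CPM in control 4. That sum was 145.5 to 216.9 CPM in the other controls and 159.8 to 189.9 CPM in mutants, so that control 4 stayed highest. Of those astrocyte markers, Gfap is listed at 0 in every library, and its span is one that other genes cover. For 5 of the 7 genes, Kcnc1, Kcnc2, Kcns3, Kcnab1 and Kcnab2, the highest level of all 7 libraries was in control 4, and the part of these markers in their values was not tested. Without control 4 both Kcnc1 and Kcnab2 remained called.

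Within libraries, the log2 ratio of Kcnab3 to Kcnab1 was 0.80 ± 0.38 in controls (SD, n = 4) and −0.15 ± 0.28 in mutants (SD, n = 3), without overlap (exact permutation test, two-sided, p = 0.0571, adjusted p = 0.0857). Kcnab1 to Kcnab2 was −0.37 ± 0.08 in controls (SD, n = 4) and 0.12 ± 0.20 in mutants (SD, n = 3), also without overlap (exact permutation, p = 0.0286, adjusted p = 0.0571). Kcnab3 to Kcnab2 overlapped, at 0.43 ± 0.45 and −0.03 ± 0.21 (exact permutation, p = 0.20, adjusted p = 0.20). None of the 6 pairs compared passed 0.05 after adjustment. A pair at 0.0286, the smallest p of this design, could pass after adjustment only if enough other pairs reached it too. Unequal change among the Kv beta genes was thus not shown, and this number of libraries left the adjusted test little room to show it.

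**Figure D3:**
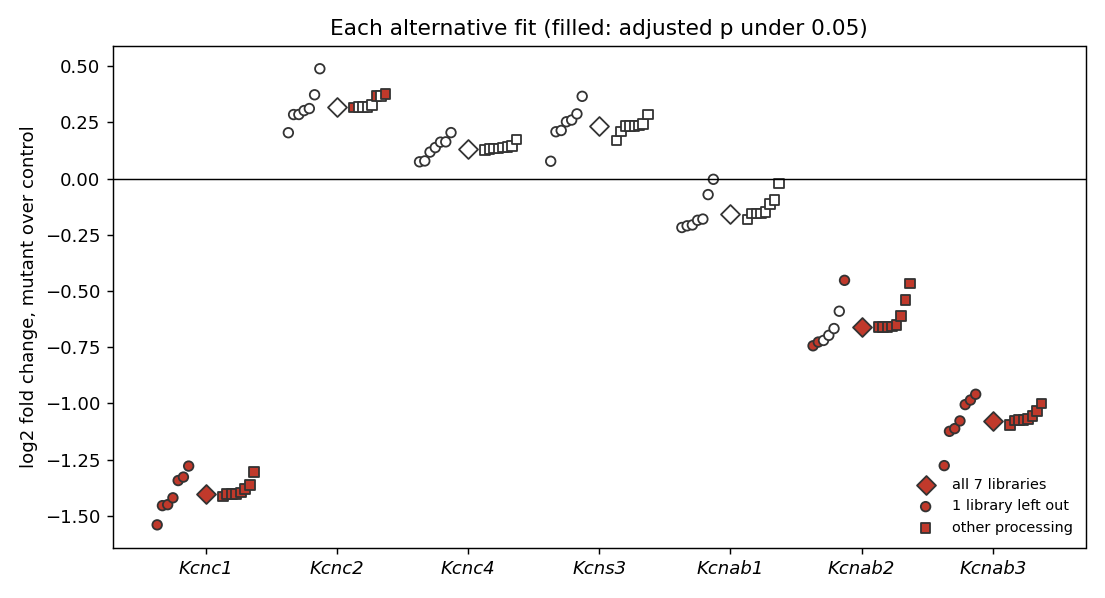
Log2 fold change of mutant over control for the 7 genes in each fit. Diamonds are the main fit with all 7 libraries and circles have 1 library left out. Squares are fits under other processing and the fit without controls 1 and 4. Filled symbols have an adjusted p under 0.05. Kcnc1 and Kcnab3 are filled throughout, and Kcnab2 is open in 4 of the 7 fits with 1 library left out. Kcnc2 is filled in 3 of the squares, the fit without controls 1 and 4 among them.

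Levels compared between genes depended on the length used. Per kb of unshared span, Kcnab3 was highest in controls at 28.2 ± 3.48 CPM per kb (SD, n = 4), followed by Kcnc1 at 12.2 ± 2.09 and Kcnc2 at 7.47 ± 1.85. The other 4 lay close together: Kcns3 at 1.90 ± 0.489, Kcnab1 at 1.44 ± 0.297, Kcnc4 at 1.40 ± 0.162 and Kcnab2 at 1.17 ± 0.319 CPM per kb of span. Ranges of neighbours among these 4 overlapped, whereas those of Kcnab3, Kcnc1 and Kcnc2 did not. In mutants the order per kb of span was Kcnab3 at 13.3 ± 2.99 (SD, n = 3), Kcnc2 at 9.30 ± 0.564, Kcnc1 at 4.62 ± 0.713 and Kcns3 at 2.23 ± 0.134 CPM per kb, with Kcnab2 last at 0.736 ± 0.0642. Per kb of merged exon Kcnc2 led in both groups, at 204.9 ± 50.9 CPM per kb in controls (SD, n = 4) and 255.2 ± 15.5 in mutants (SD, n = 3). On that scale Kcnc1 was at 54.6 ± 9.33 and 20.6 ± 3.18 CPM per kb and Kcnab3 at 44.1 ± 5.45 and 20.9 ± 4.69, and these 2 overlapped in both groups. Merged exon includes bases within the spans of other genes, where reads are left out. Outside such spans lie 2.002 of 2.865 kb of exon for Kcnab3, 6.976 of 8.593 for Kcnab1 and 4.982 of 5.578 for Kcnab2. Their levels and shares per kb of exon are thus set too low or uneven, and the order of Kcnc1 and Kcnab3 on that scale is not settled. Kcnab3 made up 91.4 ± 2.34% of the summed Kv beta level per kb of span in controls (SD, n = 4) and 86.6 ± 1.93% in mutants (SD, n = 3), and 63.4 ± 6.92% and 52.7 ± 3.85% per kb of exon, with overlap on both scales.

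Related genes were taken in 4 lists, of Kv1 pores, Kv2 pores, other silent subunits and KCNE accessory subunits, in which 23 genes were found and 15 tested. Of these, 5 fell, 1 rose and 9 did not pass the test, with a median log2 fold change of −0.32. Of the Kv1 pore genes, the main partners of Kv beta proteins, 2 of 5 tested fell. Kcna1, which encodes Kv1.1, was at 126.1, 106.4, 118.6 and 195.1 CPM in controls and 47.4, 39.8 and 52.4 CPM in mutants, without overlap. Its log2 fold change was −1.55 (SE 0.20, edgeR adjusted p = 0.000434). Kcna2, which encodes Kv1.2, was at 161.3, 134.1, 157.3 and 218.5 CPM in controls and 86.1, 89.9 and 99.0 CPM in mutants, also apart. Its log2 fold change was −0.87 (SE 0.15, edgeR adjusted p = 0.00399). Kcna4, Kcna5 and Kcna6 did not pass, at 0.30, 1.12 and −0.53 on the log2 scale. The value of Kcna5 rests on few reads, 8 to 18 in controls and 22 to 31 in mutants (SE 0.36, edgeR adjusted p = 0.0771). Its groups did not overlap in CPM, whereas those of Kcna4 and Kcna6 did. Kcna3, whose span other genes cover, is listed at 0 in every library.

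Silent subunits related to Kcns3 did not move in 1 direction: of 8 tested, 3 fell and 1 rose. Kcns1, which encodes Kv9.1, was at 18.2, 16.1, 13.8 and 18.3 CPM in controls and 2.81, 3.02 and 5.46 CPM in mutants. All mutants were below all controls, and the gene fell by 2.13 on the log2 scale (SE 0.25, edgeR adjusted p = 0.000227). Kcng4, which encodes Kv6.4, had 201 reads in the 4 controls and 4 in the 3 mutants, or 2.80% of the control rate (exact binomial 95% interval 0.757 to 7.29%, counting error only). Kcng2, which encodes Kv6.2, fell by 0.80 on the log2 scale (SE 0.21, edgeR adjusted p = 0.0296). This call was lost without control 3 (adjusted p = 0.0825), mutant 6 (0.109), mutant 7 (0.124) or mutant 8 (0.0956). Kcng3, which encodes Kv6.3, was at 3.33, 8.00, 7.68 and 7.33 CPM in controls and 14.0, 14.8 and 17.3 CPM in mutants, so every mutant was higher. Its log2 fold change was 1.22 (SE 0.26, edgeR adjusted p = 0.0102), and without mutant 8 the adjusted p was 0.0608. Of the KCNE genes 1 was tested, Kcne2, which did not pass (log2 fold change 0.23, edgeR adjusted p = 0.87).

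**Figure D4:**
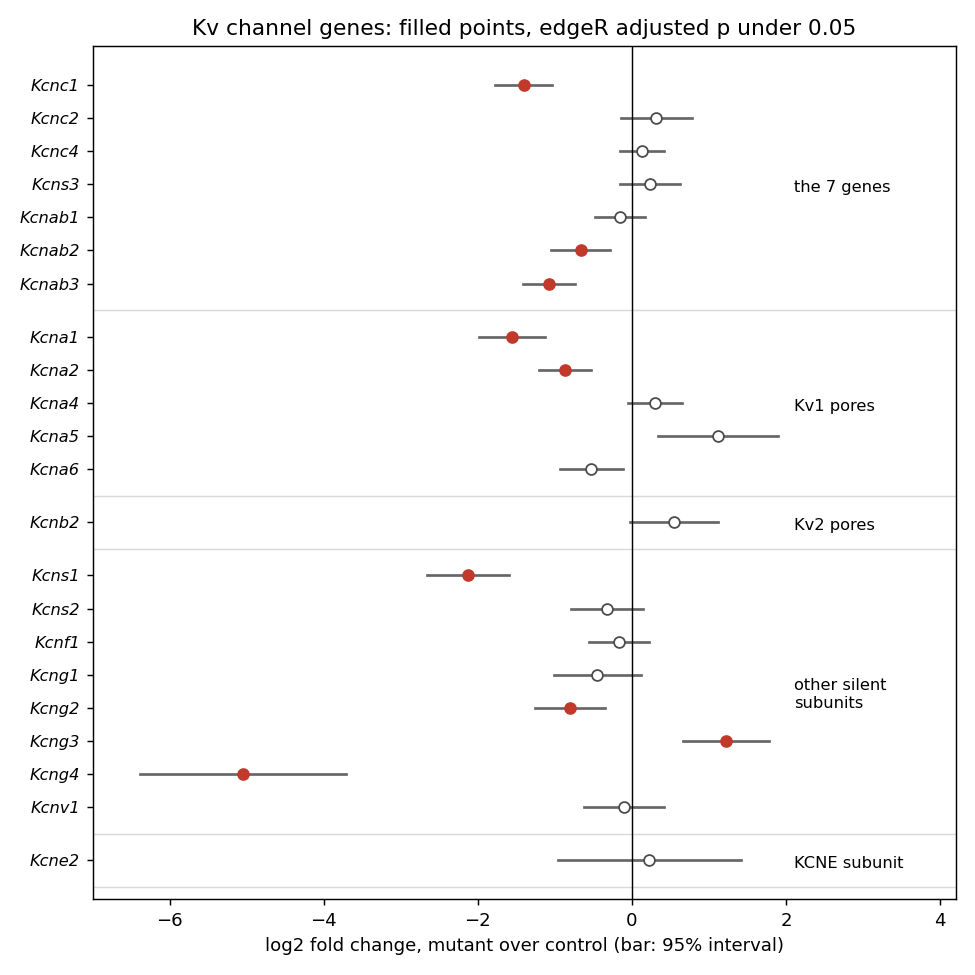
Log2 fold change of mutant over control with its 95% interval for the 7 genes and the 15 tested genes of the partner lists. Filled points have an edgeR adjusted p under 0.05. Kcnc1, Kcnab2 and Kcnab3 lie left of 0, as do Kcna1, Kcna2, Kcns1, Kcng2 and Kcng4, and Kcng3 is the filled point to the right.

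The genes whose values across the 7 libraries came nearest to those of the 3 called subunit genes were sought among the 11785 genes that averaged 5 CPM or more. Nearness was the root mean square difference of log2 CPM after each gene's control mean was subtracted. For Kcnc1 the nearest were Mypn at 0.119, Jam2 at 0.120 and Pparg at 0.145, whose own log2 fold changes were −1.36, −1.49 and −1.43. For Kcnab3 they were Slc30a3 at 0.114, Sept4 at 0.118 and Pde4c at 0.128. For Kcnab2 they were Mgll at 0.0757, Nacc2 at 0.0801 and Galnt9 at 0.0857. The 7 subunit genes were left out of the genes compared, so none of them could be listed as near another. These distances are descriptions over 7 libraries and carry no test.

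Markers of parvalbumin neurons differed in direction among themselves. Of 7 tested, Pvalb, Syt2 and Akr1c18 fell, at −4.48, −2.18 and −1.82 on the log2 scale, and Lgi2 rose, at 0.49 (edgeR). The 7 summed to 2832 to 4422 CPM in controls and 3684 to 4663 CPM in mutants, but Erbb4 alone made up 86.7 to 93.0% of each sum. The other 6 summed to 346.6 to 376.7 CPM in controls and 285.0 to 352.7 CPM in mutants, where mutant 7 was above control 4 and the other mutants were below every control. Markers of the other classes moved as well. The 7 somatostatin markers summed to 1345 to 1684 CPM in controls and 2199 to 2616 CPM in mutants, with 3 higher and 1 lower by the test. The 7 LAMP5 markers summed to 663.1 to 752.2 CPM in controls and 464.0 to 557.6 CPM in mutants, with 3 lower and 1 higher. The 8 VIP markers overlapped, at 377.2 to 573.6 and 550.9 to 576.1 CPM, with 3 higher and 2 lower. The part of cell numbers in the values of Kcnc1, Kcnab2 and Kcnab3 was not tested.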

How the data were processed

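Nuclear RNA was made into cDNA with SMART-Seq v4 and into Nextera XT libraries, sequenced as paired ends on an Illumina NextSeq, per the labels' protocols. SMART-Seq v4 has no molecular identifiers, so copies of 1 molecule cannot be told apart from separate molecules. Intervals from reads pool libraries, treat each read as independent, and cover counting error only, so they can be too narrow. The deposited values are raw counts per gene. Bowtie2 2.5.3 and the build mm10/GRCm38 are named in the submitters' processing notes, and the counting program is not given in the sources used here. Symbols and coordinates came from GENCODE M21 (GRCm38), which held all 55450 identifiers. Counts were fitted in R 4.3.3 with edgeR 4.0.16 (filterByExpr, TMM, robust quasi-likelihood, group as the only term), tested beforehand on simulated counts. The SE is the log2 fold change over the square root of F, and intervals use the fit's degrees of freedom. DESeq2 1.42.0 and limma 3.58.1 served as alternatives. Ratios used a pseudocount of 0.5. The planned 4 mutants became 3. The labels do not say whether libraries came from separate litters, and p-values set group differences against the variation between these libraries. The genes named are the 7 subunit genes, Thra, Pvalb, called genes of the partner lists, genes overlapping a subunit gene, and the 3 nearest profiles of each called subunit gene. Some genes of the rule and lists are not reported here. Other partner and marker genes beside them were named after their values were seen. The 7 genes and the lists were chosen with earlier results of these data known. RefSeq promoters matched 6 of the 7 genes, Kcnab3 being the exception.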

Additional observations from a re-analysis of the deposited data

Results flagged for a closer look

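In 2 of 13 sets of values examined, 1 library lay beyond Dixon's 95% critical value for 4 samples, and in each it was control 4. Chance gives this in about 1 of 20 groups. Kcnab1 stood at 95.6 CPM in that library and at 64.0 to 68.9 CPM in the other controls. Kcnab2 was at 134.3 CPM there and at 79.1 to 87.4 CPM in the others.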

How the results depend on the processing

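Kcnc1 and Kcnab3 kept their direction and their call in all 15 alternatives, and Kcnc4, Kcns3 and Kcnab1 kept their direction and stayed uncalled. For Kcnc2 the log2 fold change passed the threshold at 0.32 with the length offset, 0.37 with limma-voom and 0.38 without controls 1 and 4, and the cause was not tested. Kcnab2 ranged from −0.74 to −0.45 with 1 library left out. The number of called genes was 2753, 3147 and 2778 under those 3 settings, and 734 to 2347 with 1 library left out, among them 766 without mutant 6 and 816 without mutant 8. The causes were not tested. Leaving libraries out gave fewer calls in some fits and more in others than the 1549 with all libraries. Kcng2 was at −0.78 with library totals only (adjusted p = 0.0593). Thra passed the threshold with the length offset, DESeq2, limma-voom, and without control 1, control 4 or both, at −0.48 to −0.39 on the log2 scale. Among genes near Kcnab2, Mgll, Nacc2 and Galnt9 each lost the call without any 1 mutant, and Pde4c, near Kcnab3, without mutant 7 or 8. Leaving 1 library out gave ratios without a test, since the splits then left cannot reach 0.05. No paired analysis was possible because controls and mutants share no animal number. With 4 against 3 libraries, the size of the spread limits what can be called.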

Other observations

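The log2 ratio of control 1 to control 4 was 0.34 for Kcnab3, whose span is the shortest of the 7 genes at 6.79 kb, and negative for the other 6, from −0.40 for Kcnc4 (21.2 kb) to −0.97 for Kcns3 (60.9 kb). For Kcnc2 it was −0.84 (195.9 kb) and for Kcnab1, the longest at 268.8 kb, −0.57. Over tested genes of 10 to 100 kb the median was −0.01.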
